A study of Saccharomyces cerevisiae with 6 samples.

Results

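The genes described here encode the machinery that carries proteins into the mitochondria of Saccharomyces cerevisiae and the chaperones that fold them in the matrix. They were taken by gene symbol in the platform annotation, as TIM, TOM or PAM followed by a number, plus 13 genes by name (MGE1, HSP60, HSP10, MDJ1, SSC1, HSP78, MAS1, MAS2, MIA40, ERV1, SAM35, SAM37 and SAM50). The rule found 38 genes of 5365 named on the array, each represented by 1 feature. All 38 had a value in all 3 hybridisations, so none was lost to a filter. The name pattern also took in TIM11, which encodes a subunit of ATP synthase, and PAM1, a gene named for allowing growth without a protein phosphatase. Neither is known as a part of the import machinery, and both are described last.

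The study exposed strain S288C, the strain of the reference genome, to tetrachloroethylene, a chlorinated solvent. Cells growing exponentially at 25 °C in YPD, a rich medium with glucose, received the compound at a final 3.3 mM and were collected after 2 h. On each array of 2 colours, Cy5-labelled complementary DNA of exposed cells was set against Cy3-labelled complementary DNA of cells at an optical density of 1 taken before the addition. There were 3 arrays from independent biological samples, each read at a high and a low laser setting, and both scans of an array were averaged, so that n is 3. The exposed cells carried Cy5 on every array, and the unexposed cells were collected 2 h earlier. Dye and growth time can therefore not be told apart from the exposure.

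All values are log2 ratios of exposed over unexposed cells, where 1 stands for a doubling. The base and the direction of the ratio are not stated in the labels and were taken from the usual form of such deposits and the dye labels. The authors' normalisation sets the bulk of spots near 0, so a ratio shows a transcript's change relative to the other transcripts, and a change in RNA per cell cannot be seen. Hybridisation 1 stood apart from the others: 182 of 5349 tested genes lay more than 1.5 above the mean of the other arrays there, against 3 genes in hybridisation 2 and 4 in hybridisation 3. Its standard deviation over all tested genes was 0.90, against 0.65 and 0.67. Of 12 genes of meiosis and sporulation, set as markers of another cell state, 0 rose by limma (3 before adjustment of p) and SPS4 fell; the median was 0.12. Without hybridisation 1, 4 of the 12 rose and 2 fell, where 20.8% of all tested genes rose and 21.9% fell. SPO11, SPR3 and SPS1 of that list read 3.86, 3.50 and 2.51 in hybridisation 1 and at most 0.97 on the other arrays.

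Most mitochondrial proteins are made in the cytosol and enter through the TOM complex of the outer membrane. From there, proteins with a cleavable presequence pass the TIM23 complex of the inner membrane, pulled by a motor built around the Hsp70 chaperone Ssc1, and are trimmed and folded in the matrix. Carrier proteins and other membrane proteins are escorted by small Tim chaperones of the intermembrane space to the TIM22 complex or, for barrels of the outer membrane, to the SAM complex, and small cysteine-rich proteins are trapped by the oxidising relay of Mia40 and Erv1.

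TOM6 and TOM7, small subunits of the outer membrane gate, the receptor TOM70, 4 genes of the intermembrane space and the chaperonin lid HSP10 rose after exposure. No gene of the inner membrane channels, the Hsp70 motor, the SAM complex or the processing peptidase passed the test. Of the 38 genes, 8 rose past an adjusted p of 0.05 in limma's moderated test and 0 fell. They were TOM7, TIM10, TIM9, TOM6, HSP10, TOM70, ERV1 and TIM13, with mean log2 ratios from 1.80 down to 0.65. In the background of 5349 tested genes, 489 rose (9.14%) and 636 fell (11.9%), which makes 21.0% in either direction. Before adjustment, 11 of the 38 were higher and 1 was lower at a p under 0.05. The median of the 38 means was 0.12, against -0.02 over all tested genes. All 3 arrays were above 0 for 16 of the 38 genes and below 0 for 6, which is 42.1% and 15.8%, against 27.5% and 31.3% of all tested genes. The count rested on single arrays. Without hybridisation 1, 13 of the 38 rose and 1 fell (background 20.8% and 21.9%), and all of the first 8 were among the 13. The others of the 13 were TOM22, TOM40, MIA40, PAM17 and HSP78. In that fit each of the 38 genes had the same standard error, 0.19. Calls without hybridisation 1, here and below, thus followed the mean ratio and not a gene's own spread. Without hybridisation 2, TOM7, TIM10 and TOM70 rose and TIM21 fell (background 6.97% and 7.35%). The standard errors of the 38 genes differed little in that fit, from 0.35 to 0.37, so these calls also mostly followed the mean. Without hybridisation 3, 0 rose by limma while 7 were higher at an unadjusted p under 0.05, and over all tested genes 1 rose. The order of the 38 genes was alike between arrays, with Pearson's r across genes of 0.60 for hybridisations 1 and 2, 0.74 for 1 and 3 and 0.65 for 2 and 3, against 0.56, 0.56 and 0.84 across all tested genes. Genes are not independent replicates, and those on an array share its labelling, so these are descriptions.

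**Figure D1:**
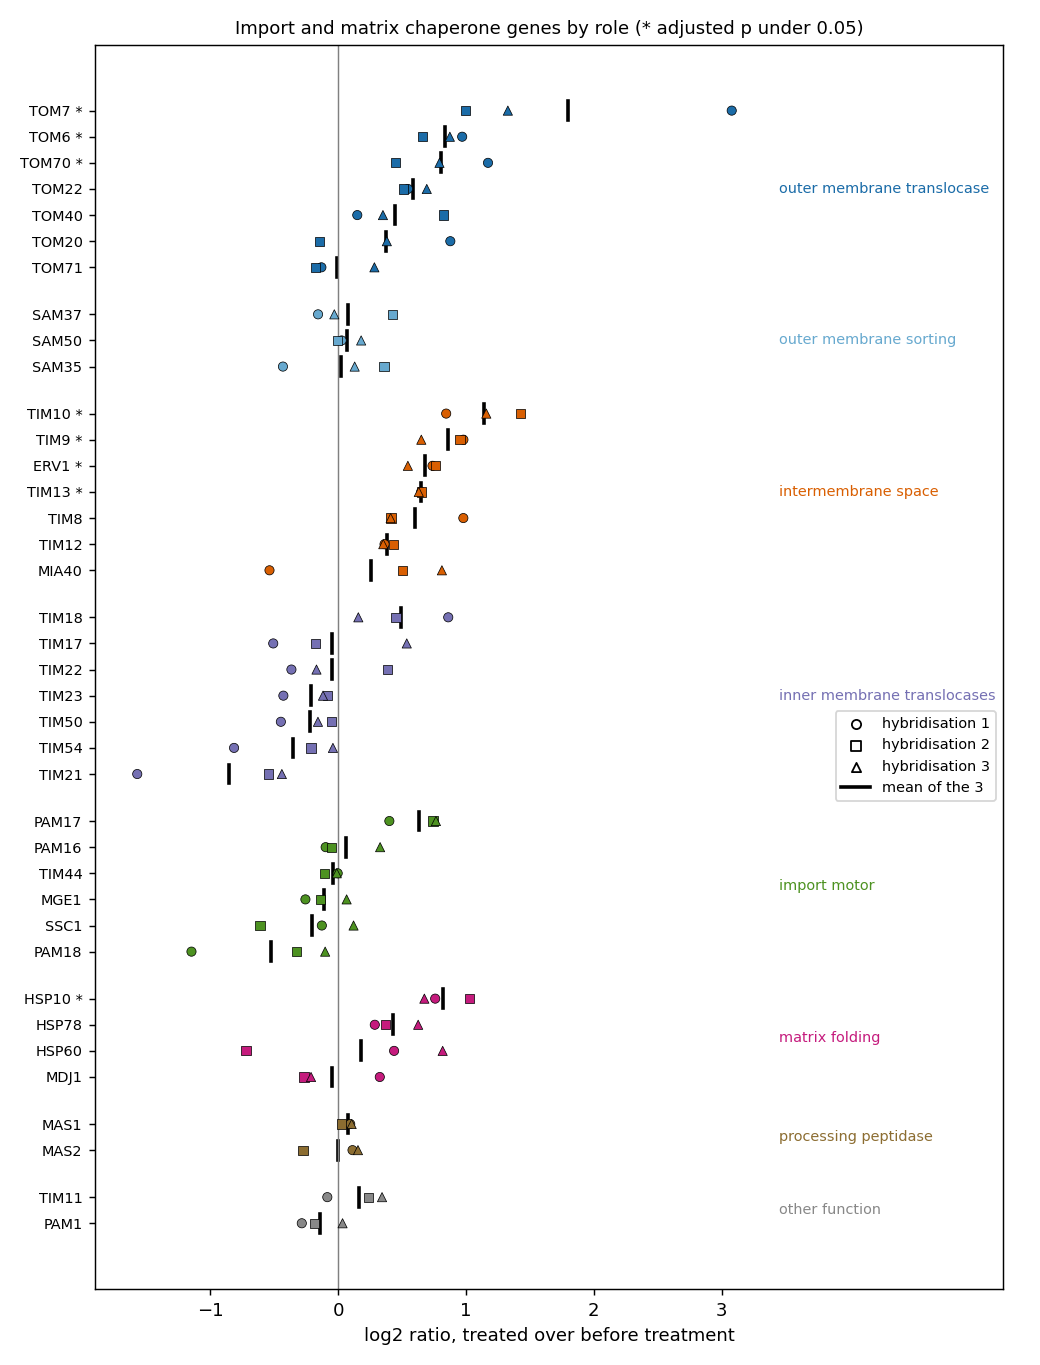
Log2 ratio of exposed over unexposed cells (x axis) for the 38 genes (y axis), grouped by role. Each symbol is 1 hybridisation, the black bar is the mean of the 3, and a star marks the 8 genes past an adjusted p of 0.05. The 8 stars fall in the outer membrane translocase, the intermembrane space and matrix folding, and most inner membrane translocase genes lie left of 0.

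The TOM complex is the entry gate, with the channel Tom40, the receptors Tom20, Tom22 and Tom70, and small subunits that shape the assembly. TOM7 (YNL070W), a small subunit known for loosening the complex, had log2 ratios of 3.08, 0.99 and 1.33 in hybridisations 1, 2 and 3. All were far above 0, and hybridisation 1 was far above the others. The mean was 1.80 ± 1.12 (SD, n = 3), or 3.48-fold (adjusted p = 0.0232, limma), and it was 1.16 without hybridisation 1. TOM7 was the only 1 of the 38 genes that lay more than 1.5 above the mean of the other arrays in hybridisation 1, and both scans of that array read high, at 2.86 and 3.29. TOM6 (YOR045W), a small subunit that stabilises the complex, had 0.97, 0.66 and 0.87, close together on the 3 arrays. Its mean of 0.84 ± 0.16, or 1.78-fold, passed the test (adjusted p = 0.0233).

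TOM70 (YNL121C), the receptor for carrier precursors that arrive with cytosolic chaperones, had 1.17, 0.45 and 0.79. Hybridisation 2 was lowest, and all 3 were above 0. The mean was 0.81 ± 0.36, or 1.75-fold (adjusted p = 0.0386). Its paralogue TOM71 (YHR117W), a minor receptor of the same kind, read -0.13, -0.18 and 0.28, on both sides of 0, with a mean of -0.01 ± 0.25. TOM70 exceeded TOM71 on all 3 arrays, by 1.30, 0.63 and 0.51 and by 0.81 ± 0.43 on average. With 3 arrays an exact sign-flip permutation test cannot go below a two-sided p of 0.25, which is the value for this pair. Whether the features of these paralogues are specific was not tested.

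TOM22 (YNL131W), the central receptor, had 0.55, 0.51 and 0.69 and did not pass (mean 0.58 ± 0.10, adjusted p = 0.0594). The 3 values were as close to each other as those of TOM6, but lower. It passed after centring of each array on its median (adjusted p = 0.0481) and after quantile normalisation (0.043). From either scan alone it did not pass (0.137 at high and 0.0745 at low power). In hybridisation 2 its scans disagreed, with 0.03 at high and 0.99 at low power. The channel gene TOM40 (YMR203W) read 0.15, 0.83 and 0.35, with a mean of 0.44 ± 0.35. TOM20 (YGR082W), the receptor for presequences, read 0.88, -0.14 and 0.38, so its arrays lay on both sides of 0 (mean 0.37 ± 0.51). Over the 7 TOM genes 3 rose, 0 fell and the median of the means was 0.58, with 5 of the 7 above 0 on all 3 arrays. Of all tested genes, 9.14% rose and 27.5% were above 0 on all 3 arrays.

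The SAM complex inserts barrel proteins into the outer membrane and is reached from the intermembrane space. Of its 3 genes 0 passed by limma, and 0 did before adjustment of p. SAM50 (YNL026W), the barrel-shaped core, had 0.03, -0.01 and 0.18. SAM35 (YHR083W), which recognises the barrel signal, had -0.43, 0.36 and 0.13, and SAM37 (YMR060C), which helps release the product, had -0.16, 0.42 and -0.03. Each of the 3 genes had arrays on both sides of 0, and their means lay between 0.02 and 0.08. The 95% intervals of the limma fit reached from -0.36 to 0.49 for SAM50 and from -0.50 to 0.53 for SAM35, so changes inside these ranges could not be told from 0.

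In the intermembrane space 4 of 7 genes rose and 0 fell, all 7 means were above 0, and 6 were above 0 on all 3 arrays. Of all tested genes, 9.14% rose and 27.5% were above 0 on all 3 arrays. The medians of the 7 genes were 0.74, 0.65 and 0.63 in hybridisations 1, 2 and 3, against -0.08, -0.02 and -0.01 over all tested genes. The small Tim genes among them are short, with 264 to 330 bases. Among all tested genes of at most 300 bases the medians were 0.75, 0.40 and 0.45. Among those over 300 and up to 600 bases they were 0.22, 0.20 and 0.27. In the shorter of these classes 33.7% of genes rose, and in the longer 17.0% did. The part of length in this group was not tested. TIM10 (YHR005C-A) and TIM9 (YEL020W-A) encode the partners of the essential chaperone complex that guides carriers across this space. TIM10 had 0.85, 1.43 and 1.16 and a mean of 1.14 ± 0.29, or 2.21-fold (adjusted p = 0.0138). It had the lowest adjusted p of the 38 genes. TIM9 had 0.98, 0.95 and 0.65 and a mean of 0.86 ± 0.18, or 1.82-fold (adjusted p = 0.0220). TIM10 was the higher partner in hybridisations 2 and 3 and TIM9 in hybridisation 1, and the mean difference of TIM9 minus TIM10 was -0.28 ± 0.36 (exact p = 0.50).

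TIM8 (YJR135W-A) and TIM13 (YGR181W) encode the partners of the second small chaperone complex, which is not essential for growth. TIM13 gave nearly the same value on every array once scans were averaged, 0.65, 0.65 and 0.63. Its scans in hybridisation 2 read 0.51 at high and 0.80 at low power. With a mean of 0.65 ± 0.01, or 1.56-fold, TIM13 passed narrowly (adjusted p = 0.0436). TIM8 read 0.98, 0.41 and 0.41, highest in hybridisation 1, and did not pass (mean 0.60 ± 0.33, adjusted p = 0.0764). The means of these partners differed by 0.04, less than the spread between arrays. TIM12 (YBR091C), which docks the chaperones on the TIM22 complex, read 0.36, 0.43 and 0.35, all above 0 (mean 0.38 ± 0.04, adjusted p = 0.157). These close values are averages of scans that disagreed, with 0.86 at high and -0.14 at low power in hybridisation 1. The mean was 0.57 from high power values only and 0.19 from low power values only.

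ERV1 (YGR029W), the sulfhydryl oxidase that recharges Mia40, had 0.74, 0.76 and 0.55 and rose with a mean of 0.68 ± 0.12, or 1.60-fold (adjusted p = 0.0405). MIA40 (YKL195W), the import receptor and disulfide carrier, had -0.54, 0.51 and 0.81. Hybridisation 1 lay below 0 and the others above it, so the mean of 0.26 ± 0.71 did not pass (adjusted p = 0.528). Both scans of hybridisation 1 were below 0 for MIA40, at -0.40 and -0.67. Without that array its mean was 0.66 and it passed (adjusted p = 0.00199), in the fit where all import genes had the same standard error.

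Of 7 genes of the inner membrane translocases 0 rose and 0 fell by limma (0 higher and 1 lower before adjustment of p), and 4 were below 0 on all 3 arrays. Of all tested genes, 31.3% were below 0 on all 3 arrays. TIM23 (YNR017W), the presequence channel, had -0.43, -0.08 and -0.12 and a mean of -0.21 ± 0.19. Its partner TIM17 (YJL143W), a channel subunit of the same family, had -0.51, -0.17 and 0.54, and its 3 arrays were spread over both sides of 0. TIM50 (YPL063W), the receptor that receives presequences from TOM, had -0.45, -0.05 and -0.16. All 3 lay below 0, with hybridisation 1 the lowest.

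TIM21 (YGR033C), which links the TIM23 complex to TOM and to the respiratory chain, was the lowest of the 38 genes, with -1.57, -0.54 and -0.44. All 3 values were below 0 and the first stood apart. The mean was -0.85 ± 0.63 (adjusted p = 0.0610). In hybridisation 1 it had a value in the high power scan only. It passed as lower without hybridisation 1 (mean -0.49, adjusted p = 0.0253) and without hybridisation 2 (-1.01, adjusted p = 0.0497). TIM22 (YDL217C), the carrier channel, had -0.37, 0.39 and -0.17 and differed in sign between arrays. TIM54 (YJL054W), which holds the TIM22 complex together, had -0.81, -0.21 and -0.04, all below 0 (mean -0.36 ± 0.41). TIM18 (YOR297C), a subunit of the same complex related to succinate dehydrogenase, was the exception to the group's sign, with 0.86, 0.45 and 0.16 and a mean of 0.49 ± 0.35 (adjusted p = 0.131).

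The import motor pulls precursors into the matrix. Of its 6 genes 0 rose and 0 fell by limma (1 higher and 0 lower before adjustment of p), and the median was -0.07. SSC1 (YJR045C), the mitochondrial Hsp70 that drives the motor, had -0.13, -0.61 and 0.12, a mean of -0.21 ± 0.37 and a 95% interval from -0.71 to 0.29. The lowest value came from hybridisation 2, where SSC1 had a value in the low power scan alone. TIM44 (YIL022W), which tethers Ssc1 to the channel, had the steadiest reading of the motor genes, with a mean of -0.04 ± 0.06. Its scans in hybridisation 2 read 0.06 at high and -0.27 at low power. MGE1 (YOR232W), the nucleotide exchange factor of Ssc1, had -0.26, -0.14 and 0.07. None of these 3 genes had a 95% interval that left out 0.

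PAM18 (YLR008C) is the J protein that stimulates Ssc1, and PAM16 (YJL104W) is the J-like partner that restrains it. PAM18 had -1.15, -0.33 and -0.10 and a mean of -0.53 ± 0.55 (adjusted p = 0.163), and PAM16 had -0.10, -0.05 and 0.33 and a mean of 0.06 ± 0.23. PAM16 exceeded PAM18 on all 3 arrays, by 1.05, 0.28 and 0.43 (exact p = 0.25). PAM17 (YKR065C), an accessory subunit that aids the assembly of this pair, had 0.40, 0.74 and 0.77. Its mean of 0.64 ± 0.20 was the highest of the motor and missed the threshold narrowly (adjusted p = 0.0533). It passed after centring of each array on its median (adjusted p = 0.0419), after quantile normalisation (0.0359) and without hybridisation 1 (0.000342).

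Among the matrix chaperones HSP10 rose, and its partner HSP60 did not pass. HSP10 (YOR020C), the lid of the folding chamber, had 0.76, 1.03 and 0.67 and a mean of 0.82 ± 0.19, or 1.77-fold (adjusted p = 0.0259). HSP60 (YLR259C), the chamber itself, had 0.44, -0.72 and 0.82 and a mean of 0.18 ± 0.80. Hybridisation 2 was below 0 and the others above it, and in hybridisations 2 and 3 only the low power scan held a value for HSP60. HSP60 minus HSP10 was -0.32, -1.75 and 0.14, so the order of the partners was not the same on all arrays (mean -0.64 ± 0.99, exact p = 0.50).

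HSP78 (YDR258C), the matrix disaggregase, had 0.29, 0.37 and 0.63, all above 0 (mean 0.43 ± 0.18, adjusted p = 0.135). It exceeded SSC1, with which it works on aggregated proteins, on all 3 arrays, by 0.63 ± 0.31 on average with SSC1 minus HSP78 at -0.41, -0.98 and -0.51 (exact p = 0.25). MDJ1 (YFL016C), the J protein that serves Ssc1 in folding, had 0.33, -0.27 and -0.21 and differed in sign between arrays (mean -0.05 ± 0.33). Neither subunit of the peptidase that removes presequences passed. MAS1 (YLR163C) had 0.09, 0.03 and 0.11, all slightly above 0, and MAS2 (YHR024C) had 0.11, -0.28 and 0.16. Their means were 0.08 ± 0.04 and -0.0023 ± 0.24, with 95% intervals from -0.34 to 0.49 and from -0.46 to 0.45. The scans of MAS1 disagreed in sign in hybridisation 2, with 0.34 at high and -0.28 at low power. Over the 38 genes the 95% interval reached between 0.42 and 0.93 to each side of the mean, with a median of 0.46.

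**Figure D2:**
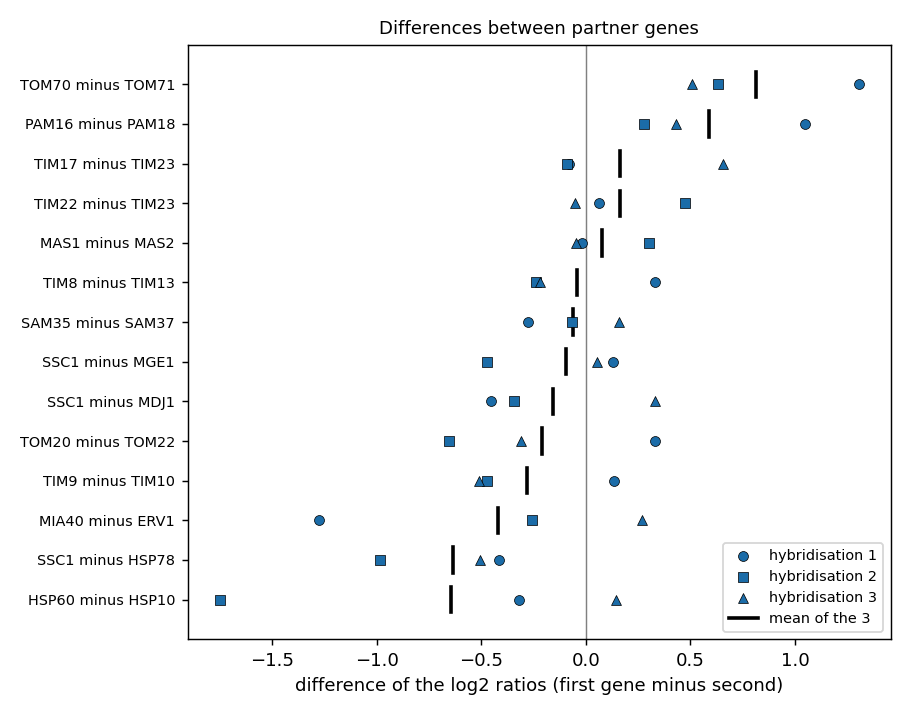
Difference between the log2 ratios of partner genes (x axis, first gene minus second) for 14 pairs (y axis), with 1 symbol per hybridisation and a black bar at the mean. In 3 pairs, TOM70 and TOM71, PAM16 and PAM18, and SSC1 and HSP78, the 3 symbols fall on the same side of 0. For a pair without any difference this has a probability of 0.25, and the share of 3 in 14 pairs is not above it.

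In all, 14 pairs of partners or paralogues were compared, and 3 kept the same order on all 3 arrays, those of TOM70 with TOM71, PAM16 with PAM18 and HSP78 with SSC1. None can pass a threshold of 0.05 with 3 arrays, before or after adjustment over the pairs. A pair without any difference keeps the same order on all 3 arrays with a probability of 0.25, the smallest p of the exact sign-flip test. The share of 3 in 14 pairs was not above that probability. The count thus gives no sign that the order of these partners differs from chance. The ATP synthase subunit gene TIM11 (YDR322C-A) had -0.08, 0.24 and 0.34, and PAM1 (YDR251W) had -0.28, -0.19 and 0.03. Neither passed, and without them the count of genes that rose was 8 of 36 and the median 0.13.

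Values in the separate scans show how firmly the ratios were read. Of the 38 genes, 27 had a value in all 6 scans, 8 in 5 and 3 (HSP60, SSC1 and TIM17) in 4. The high power scan lacked 5 of the 38 in hybridisation 2 and 6 in hybridisation 3, and 0 in hybridisation 1. The median absolute difference between the scans of an array was 0.20, 0.42 and 0.18 over these genes in hybridisations 1, 2 and 3, so hybridisation 2 had the least agreement, as it had over all features (0.18, 0.35 and 0.21). From high power values only, 5 of the 30 genes measured rose (10.1% of all genes did) and ERV1 lost its call (adjusted p = 0.0580). From low power values only, 5 of 35 rose, which is near the 11.9% of all genes that did, and TOM6 (0.0768), TOM70 (0.0589) and TIM13 (0.0837) lost theirs. The standard errors of the 35 genes differed little in the low power fit, from 0.29 to 0.33. TOM7, TIM9 and TIM10 passed in each scan alone, as did HSP10 at low power, where alone it could be tested.

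**Figure D3:**
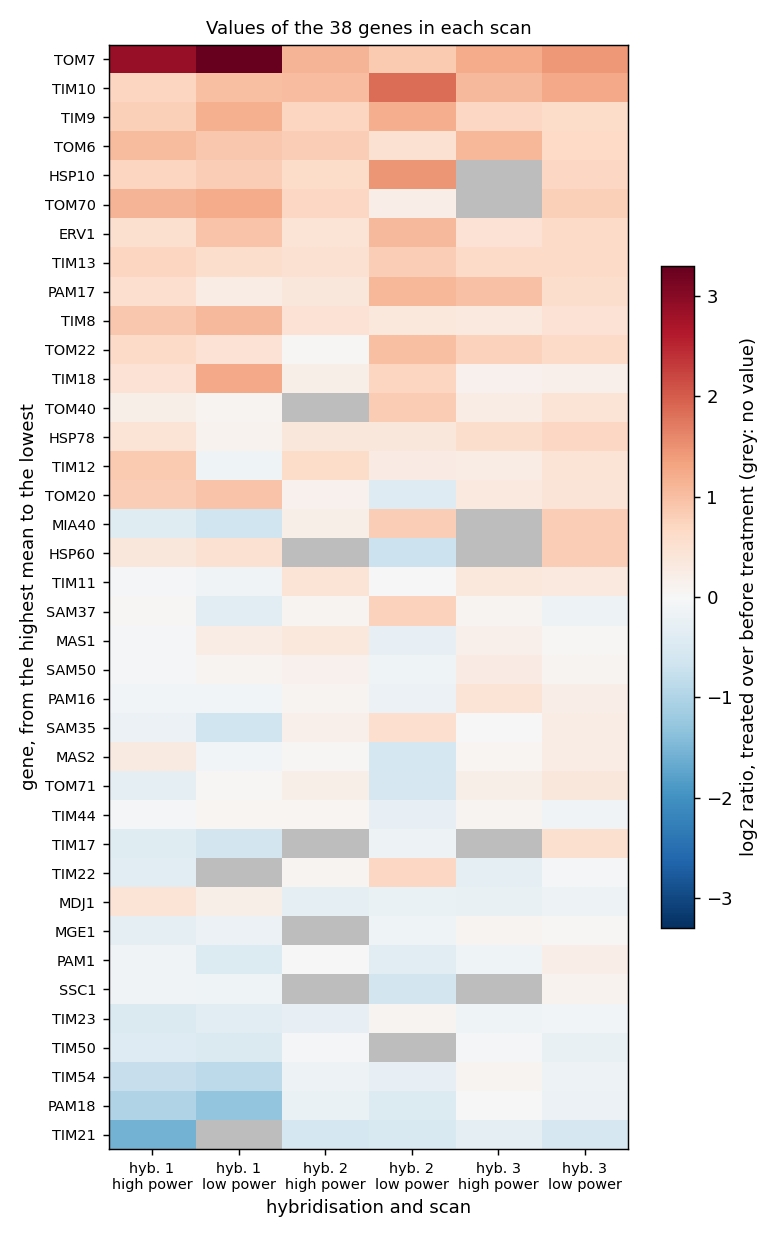
Log2 ratio (colour) of the 38 genes (y axis, from the highest mean to the lowest) in the 6 scans (x axis), with grey where a scan has no value. TOM7 is dark in both scans of hybridisation 1, the top 8 genes are above 0 in every scan that has a value, and most grey cells lie in the high power scans of hybridisations 2 and 3.

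The genes that rose were mostly short, a property that the choice of genes did not use and that was looked at after the values were seen. Gene lengths were taken from the R64 assembly's gene table, in which 96.3% of protein-coding genes have a length divisible by 3, so most hold no untranslated parts. A length not divisible by 3 cannot be a coding length alone, and ERV1, with 653 bases, was the 1 of the 38 genes with such a length, so its length class is uncertain. The 8 genes that rose had lengths from 183 bases (TOM7) to 1854 (TOM70) with a median of 300, and the other 30 from 264 to 2493 with a median of 987, against 1242 over all tested genes. Of 16 genes of at most 600 bases, 6 rose and 14 had a mean above 0, with a median log2 ratio of 0.59. Of 22 longer genes, TOM70 and ERV1 rose and 10 had a mean above 0, with a median of -0.01. With ERV1 left out, 1 of 21 longer genes rose, and the median was also -0.01.

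All genes on the array showed the same order by length. Among 98 tested genes of at most 300 bases the median log2 ratio was 0.49, 33.7% rose and 0 fell. Among 677 genes of over 300 and up to 600 bases the median was 0.27 and 17.0% rose, and among 1421 genes over 1800 bases the median was -0.13, with 4.57% higher and 14.8% lower. Pearson's r between log2 length and mean log2 ratio was -0.54 across the 38 genes and -0.22 across 5327 tested genes with a length, and -0.54 and -0.23 over the 37 and 5179 of these whose length is divisible by 3. It was -0.43, -0.57 and -0.43 across the 38 genes in hybridisations 1, 2 and 3. These are correlations across genes that share arrays, given without a test. If the length classes of all genes are weighted as the 38 genes fall into them, 14.2% of genes rose, which is 5.4 of 38, and 9.31% fell, which is 3.5 of 38. The 8 and 0 found here stand beside these numbers as well as beside the unweighted background. In the shortest class 4 of 6 import genes rose (TOM7, TOM6, TIM9 and TIM10), and in the next class, up to 600 bases, 2 of 10 did (HSP10 and TIM13). The 10 genes of at most 600 bases that did not pass had means from -0.53 (PAM18) to 0.64 (PAM17), and 8 of the 10 were above 0. The part of length in the result was not tested further.

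**Figure D4:**
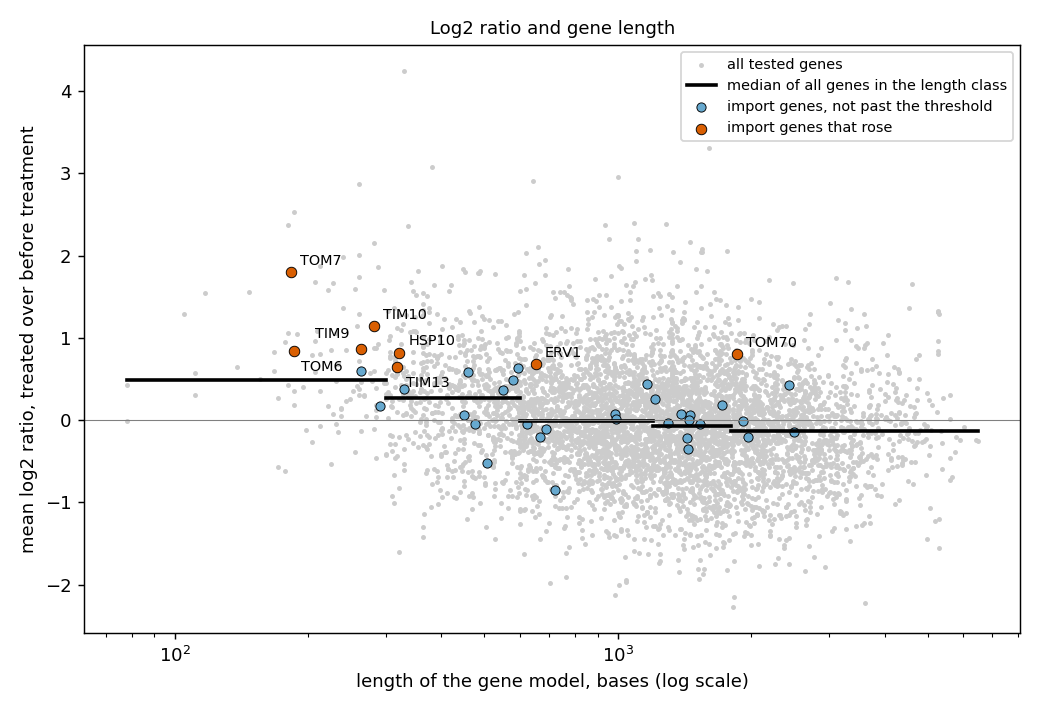
Mean log2 ratio (y axis) against gene length in bases (x axis, log scale) for tested genes with a length (grey) and the 38 import genes (blue, or orange for the 8 that rose). Black lines are the medians of all genes in 5 length classes, which descend from 0.49 to -0.13. Of the 8 orange points, 6 lie at 321 bases or less.

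Genes that work beside the import machinery were read from the same fit. Of 9 measured other factors of the translocases and the outer membrane, 4 rose, 0 fell and the median was 0.37. The share that rose was 44.4%, against 9.14% of all tested genes. Those that rose were POR1 (0.29, 1.80 and 1.24), the metabolite channel inserted by SAM, OM45 (0.40, 1.47 and 1.28) and OM14 (1.43, 0.62 and 0.72), both abundant outer membrane proteins, and MDM34 (0.93, 0.65 and 0.93) of the tether to the endoplasmic reticulum. All 4 were above 0 on all 3 arrays. Without hybridisation 2, 1 of the 9 rose (6.97% of all tested genes did), and without hybridisation 3, 0 did by limma (4 before adjustment). MIM1, which inserts outer membrane proteins such as Tom20 and Tom70, had a mean of 0.15 ± 0.26, and MGR2, a lateral gatekeeper of the TIM23 complex, had 0.32 ± 0.13. Neither passed.

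Of 9 genes of mitochondrial proteases and their adaptors 2 rose (22.2%, against 9.14% of all tested genes) and 0 fell. Those that rose were AFG3 (mean 0.74 ± 0.31, adjusted p = 0.0432), a subunit of the protease facing the matrix, and ATP23 (0.69 ± 0.02, adjusted p = 0.0367), a processing protease of the intermembrane space. YTA12, the partner of AFG3 in the same protease, had 0.22 ± 0.17. Without hybridisation 2, 1 of these 9 genes rose (6.97% of all tested genes did), and without hybridisation 3, 0 did by limma (2 before adjustment). The matrix protease PIM1 had 0.17 ± 0.11 and did not pass. The adaptor gene MGR1 read 3.62 in hybridisation 1 and -0.77 and -0.64 on the others, so its mean of 0.74 rests on that array. Of 7 genes of insertion from the matrix side, MSS2 rose (0.73 ± 0.16, adjusted p = 0.0355), a factor for export of a cytochrome oxidase subunit. That is 14.3%, against 9.14% of all tested genes. OXA1, the insertase itself, had -0.24 ± 0.38. Without hybridisation 3, 0 of these 7 genes rose by limma (1 before adjustment). Of 7 genes of presequence processing and peptide breakdown 0 rose or fell by limma, with 2 higher and 0 lower before adjustment of p. Of 8 measured other matrix chaperones and helpers 0 rose or fell by limma, with 1 higher and 0 lower before adjustment, and all 8 means were above 0, with a median of 0.26. Without hybridisation 1, 4 of the 8 rose, against 20.8% of all tested genes. ECM10, a close relative of SSC1, read 0.26 ± 0.07.

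Of 11 measured cytosolic factors that deliver precursors, XDJ1 rose (0.75, 1.16 and 1.02, adjusted p = 0.0172), a J protein found at the outer membrane. None fell and the median was -0.13. The share that rose, 9.09%, was near the 9.14% of all tested genes. Without hybridisation 1, 2 of the 11 rose and 3 fell, where 20.8% of all tested genes rose and 21.9% fell. Without hybridisation 3, 0 rose by limma (2 before adjustment). YDJ1, the main cytosolic J protein that feeds TOM, had -0.46 ± 0.14, below 0 on all 3 arrays without passing. For comparison with another folding chamber, 3 of 8 subunits of the cytosolic CCT chaperonin fell (CCT2, CCT4 and CCT7), 0 rose and the median was -0.63. The share that fell was 37.5%, against 11.9% of all tested genes. Without hybridisation 1, 7 of the 8 fell (21.9% of all tested genes did), and without hybridisation 2, 1 did (7.35% of all). Without hybridisation 3, 0 did by limma (4 before adjustment). From high power values a single CCT subunit could be tested. Of 66 genes of mitochondrial ribosomal proteins, whose products are themselves imported, 12 rose (18.2%, against 9.14% of all tested genes) and 0 fell, with a median of 0.42. On all 3 arrays 40 were above 0, which is 60.6%, against 27.5% of all tested genes. The count that rose was 39 without hybridisation 1 (20.8% of all tested genes rose) and 5 without hybridisation 2 (6.97% of all). By limma it was 0 without hybridisation 3 (11 before adjustment). The ribosomal genes also had a negative correlation between length and ratio, at r = -0.47 across 66 genes. Differences between these groups and the import genes were not tested.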

How the data were processed

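Messenger RNA was compared on 3 arrays of 2 colours, exposed (Cy5) over unexposed (Cy3) cells, from 3 independent biological samples, with 2 scans per array. The authors made the log2 ratios with a LOWESS normalisation fitted on unflagged spots (flag 0), per the labels' descriptions; that their base is log2 is a reading of the deposited values. How spots were scanned, measured and corrected for background is not given in the sources used here. Without spot intensities, the number of arrays sets the precision.

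Of 6912 features 5513 carried 1 gene name, 0 carried several and 1399 none; 5508 named features matched the R64 gene table. Scans were averaged, then features of a gene. Mean ratios of 5349 genes with values in all 3 hybridisations were tested against 0 (two-sided) with limma 3.58.1 in R 4.3.3 (lmFit, eBayes), with Benjamini-Hochberg adjustment over all of them and a threshold of 0.05. Errors after ± are SD over hybridisations. The procedure was also run on simulated data with independent normal errors. Those data had no array that stood apart and no trend with length, so the run cannot speak to either. Intervals are 95% intervals of the limma fit to the measured ratios. The genes and lists, the roles and the pairs were chosen with earlier results of these data known. Every gene taken by the rule was named, and of other lists those past the threshold, and further genes of them after their values were seen. Alternatives were each scan alone, values in all 6 scans, median centring, quantile normalisation, leaving out each hybridisation and scans with hybridisation as a random block. Centring of the 8 blocks of feature IDs, leaving out the low power scan of hybridisation 2 and grouping by gene length were added after seeing the data.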

Additional observations from a re-analysis of the deposited data

How the results depend on the processing

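The 8 genes that rose kept their direction under every alternative in which they had a value (9 or 11 each). They were above 0 in every scan that had a value, so leaving out a scan or an array could not change the direction. The threshold was lost as follows. The number of import genes that rose was 5 from high power values only (30 genes measured, 10.1% of all genes rose) and 5 from low power values only (35 measured, 11.9% of all genes, near the share of these), and 0 to 13 when 1 hybridisation was left out. It was 8 to 10 under the other 6 alternatives, where 9.8% to 15.0% of all genes rose. The number that fell was 1 (TIM21) after quantile normalisation and with scans as a random block, and 0 to 1 when 1 hybridisation was left out. The median of the import genes stayed between 0.05 and 0.19 under all of these. Over all genes, 803 rose with scans as a random block, 289 rose and 255 fell where values in all 6 scans were required (2672 genes tested) and 417 fell from low power values only (3444 tested), where fewer genes could be tested. Without 1 hybridisation, 1 to 1111 genes rose and 0 to 1170 fell by limma; at 0, 743 were lower at an unadjusted p under 0.05. Where the number of genes tested was the same, the cause was not tested. Among import genes that were not called, 11 changed sign under some alternative, and all of these had a mean within 0.26 of 0. Each array holds both conditions, so the test of ratios against 0 already pairs them within an array, and there is a single group of arrays. With 3 arrays, the smallest mean that passed was 0.65, and a mean as far from 0 as -0.85 (TIM21) did not pass.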
